A study of Homo sapiens with 2 samples.

Results

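Genes that multiplied in primates by copying of chromosome segments, called duplicons, were examined in 7 families: GOLGA6, GOLGA8, NBPF, NPIPA, NPIPB, AGAP and TBC1D3. Members were the rows of the deposited gene table whose symbols begin with these family names, without names of antisense RNAs and without names that end in P plus a digit as a pseudogene suffix. This gave 104 of 43337 genes. They comprise 73 copies with ordinary symbols, 24 copies whose symbols end in P (named as pseudogenes), 6 single-copy genes that only share the letters (AGAP1, AGAP2, AGAP3, TBC1D30, TBC1D31 and TBC1D32), and AGAP1-IT1, a transcript from an intron of AGAP1. The families were chosen by the low S435D over WT ratios of GOLGA8A, GOLGA6L9 and AGAP9 in these same libraries, so the ratios below describe the members and no test was made of them.

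RNA was sequenced from 2 libraries of cells labelled BT549, a human line from a triple-negative breast cancer. Their genotype labels read SIK1_S435D and SIK1_WT, and per the series' design text both overexpress this protein kinase. The S435D construct carries aspartate in place of a serine, a change often made to mimic phosphorylation, and the WT construct carries the wild-type protein. Cells without a construct were not analysed here. There was 1 library per group, with 23520828 assigned reads in the S435D library and 22366506 in the WT library, as recovered from the RPKM values. A difference between them therefore has no replicate check, and every interval covers counting error only. SIK1 itself stood at 422 RPKM (a read number divided by gene length and sequencing depth) in the S435D library, against 380 RPKM in the WT library. The markers fixed for BT549 did not all follow the label. VIM, a mesenchymal filament gene, was at 113 RPKM in the S435D library and 116 RPKM in the WT library, and ESR1 and PGR had 1 read or none. CD44, however, had 8 reads in each library and AXL had 20 reads in the S435D library and 17 in the WT library, although both are known as strongly expressed in BT549, and FN1, the fibronectin gene, stood at 1.17 RPKM in the S435D library and 1.16 RPKM in the WT library. The keratin gene KRT8 was at 47.7 RPKM in the S435D library and 45.5 RPKM in the WT library, and KRT18 was at 41.4 and 37.5 RPKM in the same order. The epithelial genes CDH1, at 0.798 RPKM in the S435D library and 0.651 RPKM in the WT library, and EPCAM, at 2.11 and 2.48 RPKM in the same order, were low. ERBB2, which a triple-negative label expects to be low or absent, was at 10.05 RPKM (2439 reads) in the S435D library. It was at 10.64 RPKM (2456 reads) in the WT library. No reference level was used to judge whether this is low, so ERBB2 cannot be set for or against the label. The levels of CD44, AXL and the keratins go against the label. Those of VIM, ESR1, PGR, CDH1 and EPCAM do not. ERBB2 and FN1, the latter barely above 1 RPKM, are counted on neither side. The cells are therefore called only labelled BT549.

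The GOLGA6 and GOLGA8 genes lie mainly on the long arm of chromosome 15 and encode coiled-coil proteins related to golgins, the tethers of the Golgi apparatus. Their copies sit at the ends of segments that are recurrently deleted or duplicated in people. The NPIP genes (nuclear pore complex interacting protein) spread over chromosome 16 within a duplicon whose coding sequence evolved unusually fast in apes. The NBPF genes (neuroblastoma breakpoint family) of chromosome 1 encode proteins built of repeated Olduvai domains, whose number rose in the human lineage. The AGAP copies of chromosome 10 derive from genes for GTPase-activating proteins of Arf GTPases, and TBC1D3 of chromosome 17 carries the TBC domain of Rab GTPase-activating proteins. Near-identical copies make the origin of a short read ambiguous. How reads that fit several copies were assigned is not given in the sources used here, so the level of any single copy is uncertain.

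Coding stretches of copies described below, each set led by a gene that was at least 1.2-fold lower, show how alike copies can be. Each is 90 bases, 5′ to 3′, from GENCODE release 29 transcripts (GRCh38), and capitals mark positions at which the copies shown together differ. Each stretch is the first window of the longest coding sequence of the first gene that aligned without gaps to each of the others with 1 to 5 differences. It was thus picked for a close but not perfect match, and it does not measure the likeness of the whole genes.

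GOLGA8A and GOLGA8B are neighbours on chromosome 15, and their stretch has 4 variable positions:
GOLGA8A: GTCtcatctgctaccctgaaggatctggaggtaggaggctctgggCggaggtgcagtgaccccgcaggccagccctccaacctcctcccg
GOLGA8B: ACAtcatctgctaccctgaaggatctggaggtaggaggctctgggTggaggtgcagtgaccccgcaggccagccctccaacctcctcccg

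GOLGA6L9 and GOLGA6L10 differ here at 1 position:
GOLGA6L9: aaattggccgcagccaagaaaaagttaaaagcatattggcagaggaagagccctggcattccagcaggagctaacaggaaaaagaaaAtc
GOLGA6L10: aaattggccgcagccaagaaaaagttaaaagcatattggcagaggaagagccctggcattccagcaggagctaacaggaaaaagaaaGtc

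NPIPB5, NPIPB3 and NPIPB4 have 3 variable positions here:
NPIPB5: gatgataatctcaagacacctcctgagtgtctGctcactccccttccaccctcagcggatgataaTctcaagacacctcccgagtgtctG
NPIPB3: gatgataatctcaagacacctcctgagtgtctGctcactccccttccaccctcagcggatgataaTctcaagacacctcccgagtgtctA
NPIPB4: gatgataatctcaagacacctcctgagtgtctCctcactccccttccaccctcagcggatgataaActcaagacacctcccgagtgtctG

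AGAP9, AGAP4 and AGAP6 have 3 variable positions as well:
AGAP9: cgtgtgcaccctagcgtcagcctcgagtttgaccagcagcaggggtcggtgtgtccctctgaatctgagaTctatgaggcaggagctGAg
AGAP4: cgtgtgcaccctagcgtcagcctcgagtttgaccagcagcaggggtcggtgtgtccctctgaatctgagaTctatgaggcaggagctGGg
AGAP6: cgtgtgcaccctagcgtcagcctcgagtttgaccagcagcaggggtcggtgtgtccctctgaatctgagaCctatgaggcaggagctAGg

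NBPF9, NBPF15 and NBPF10 have 5 variable positions in a stretch that opens with the start codon of NBPF9:
NBPF9: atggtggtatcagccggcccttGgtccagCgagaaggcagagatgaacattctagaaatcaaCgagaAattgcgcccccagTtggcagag
NBPF15: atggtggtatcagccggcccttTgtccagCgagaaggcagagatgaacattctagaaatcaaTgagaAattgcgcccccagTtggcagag
NBPF10: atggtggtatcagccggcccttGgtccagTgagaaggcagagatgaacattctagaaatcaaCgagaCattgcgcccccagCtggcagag

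Over whole transcripts the likeness was measured as the share of a gene's 50-base words that also occur in transcripts of a gene at another place. The median over the 40 expressed copies was 76.2%, and the range ran from 11.6% for NBPF3 to 100% for NPIPA2 and TBC1D3. Among expressed copies, NPIPB3 has 97.4% of its words in NPIPB5, GOLGA8A has 68.9% of its words in GOLGA8B, and AGAP9 has 61.2% in AGAP12P. The single-copy genes AGAP1, AGAP2, AGAP3 and TBC1D31 share at most 0.0562% of theirs.

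Of the 104 members, 44 averaged 1 RPKM or more and are called expressed. By a log2 ratio of RPKM plus 0.5, S435D over WT, 42 of the 44 lay below 0 and 2 above, with a median of -0.18. Over all 13290 expressed genes of the table the median was -0.024, and 57.1% lay below 0. At least 1.2-fold lower in the S435D library were 16 of the 44 expressed members (36.4%), against 7.92% of all expressed genes. At least 1.2-fold higher was 1 member, the 363-base pseudogene AGAP13P, against 4.43% of all expressed genes, and its value rests on 16 reads in the S435D library and 8 in the WT library. The counting interval of the fold lay below 1 for 22 of the 44 members and above 1 for 0 of them, against 14.7% and 8.71% of all expressed genes. Of expressed protein-coding genes, 3.3% were at least 1.2-fold lower and 1.5% higher. Of those at up to 25 RPKM, 3.78% were lower and 1.74% higher, and the interval lay below 1 for 13.4% and above 1 for 7.27%. That cap lies above every expressed member but does not match their levels, as only 15 of the 44 averaged 5 RPKM or more. As the choice used this same contrast, these shares are given for scale only. Without GOLGA8A, GOLGA6L9 and AGAP9, 13 of 41 expressed members were at least 1.2-fold lower and the median was -0.17. Past 1.5-fold by the same log2 ratio, 0 of the 44 were lower and 1 higher, against 1.59% and 1.08% of all expressed genes. Without the pseudocount, the fold of NBPF12, 0.648, does lie past 1.5-fold. Past 2-fold, 0 were lower and 0 higher, against 0.504% and 0.339%. The size rule divides neighbours in a smooth range: GOLGA8B is the last inside it, at a log2 ratio of -0.28, and NBPF15 the first outside, at -0.25.

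**Figure D1:**
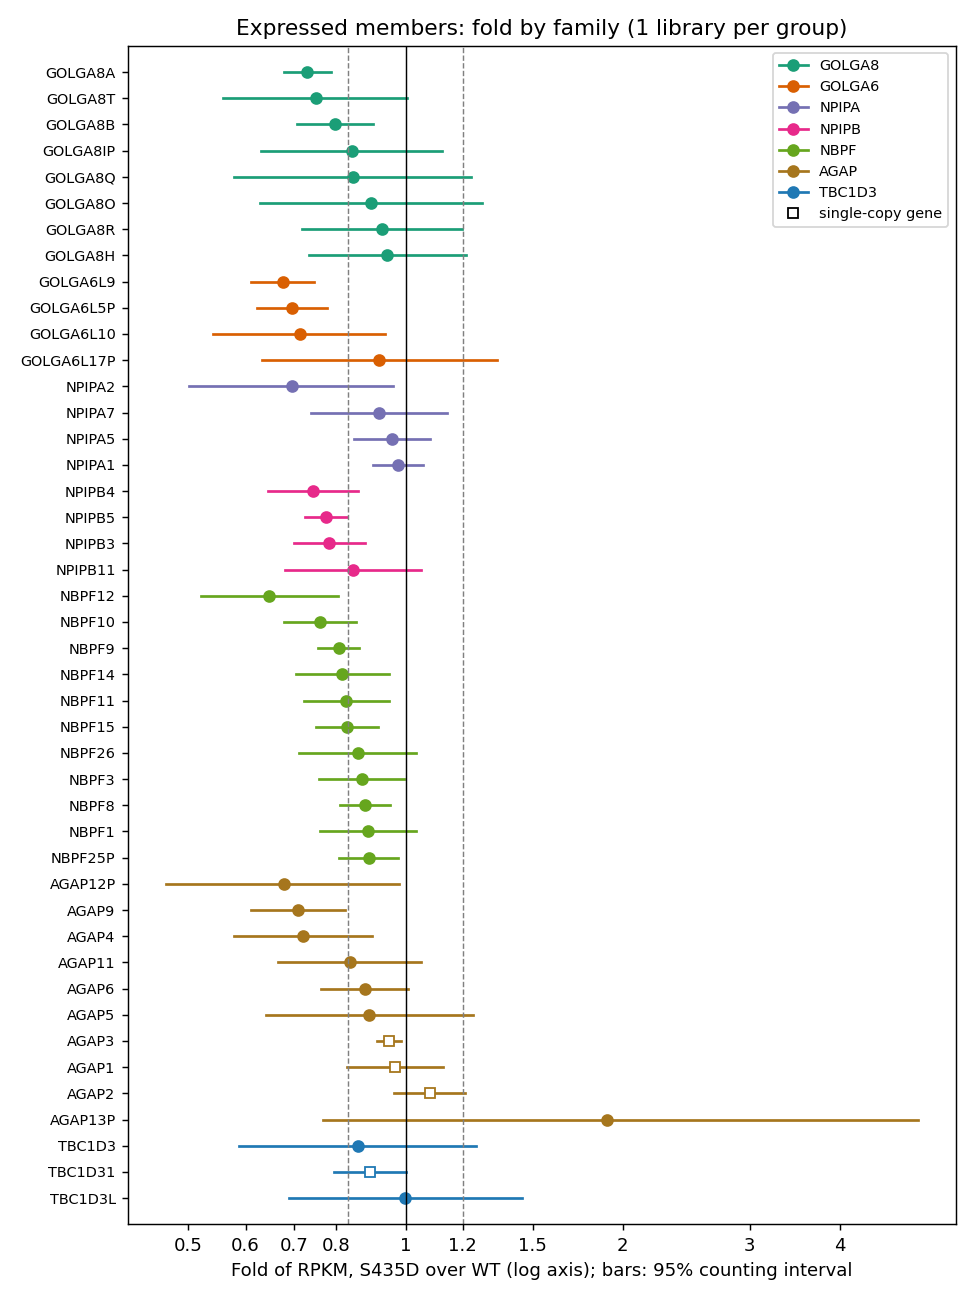
Fold of RPKM, S435D over WT, for the 44 expressed members by family, on a log axis, with 95% counting intervals as horizontal bars, dashed lines at 1.2-fold in either direction and open squares for single-copy genes. Most points lie left of 1, from NBPF12 at 0.648 and GOLGA6L9 at 0.675 on the left to AGAP13P at 1.90 on the right. The count of 16 in the text uses the ratio with the pseudocount, which is nearer to 1, so NBPF15, NBPF11 and NBPF14 lie past a dashed line and are not among the 16.

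GOLGA8A (chromosome 15, 34379068 to 34437466, minus strand) was the most abundant GOLGA8 gene. It stood at 7.64 RPKM (1213 reads) in the S435D library, against 10.5 RPKM (1578 reads) in the WT library, a fold of 0.731 (95% counting interval 0.678 to 0.788). Its close relative GOLGA8B had 501 reads in the S435D library, against 597 reads in the WT library, a fold of 0.798 (0.707 to 0.900). GOLGA8T had 86 reads in the S435D library and 109 in the WT library, with a fold of 0.750 and an interval of 0.559 to 1.005 that reaches equality. The other 5 expressed GOLGA8 copies (GOLGA8H, GOLGA8IP, GOLGA8O, GOLGA8R and GOLGA8Q) had folds of 0.842 to 0.944, all with intervals that include 1. Of the 8 expressed GOLGA8 copies, all with folds below 1, GOLGA8A and GOLGA8B alone had intervals below 1. The other 12 GOLGA8 copies were below the level filter, 3 of them without a read, and together had a fold of 0.866 (0.705 to 1.06). Of the 5 with at least 20 reads, 3 had a fold below 1 and 2 above, among them GOLGA8M with 35 reads in the S435D library and 24 in the WT library.

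GOLGA6L9 (chromosome 15, 82430018 to 82439153, plus strand) was at 4.27 RPKM (661 reads) in the S435D library, against 6.33 RPKM (931 reads) in the WT library. The fold of 0.675 (0.610 to 0.747) was the lowest of the GOLGA6 group. GOLGA6L5P, named as a pseudogene, was at 5.87 RPKM (538 reads) in the S435D library, against 8.43 RPKM (735 reads) in the WT library, a fold of 0.696 (0.622 to 0.779). GOLGA6L10 had 96 reads in the S435D library and 128 in the WT library, a fold of 0.713 (0.542 to 0.937). GOLGA6L17P had 59 and 61 reads in the same order, and its interval of 0.632 to 1.34 includes 1. These 4 were the only expressed copies of 17. Of those below the filter, GOLGA6L4 had the most reads, 66 in the S435D library and 79 in the WT library (fold 0.794, 0.564 to 1.12). The 13 together had 204 reads in the S435D library and 196 reads in the WT library, a fold of 0.990 (0.810 to 1.21). The lower GOLGA6 total thus lay in 3 related genes, and a difference was not detectable in the weakly expressed copies at this depth.

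Among expressed NPIP copies the B branch had a median log2 ratio of -0.33 and the A branch of -0.086. NPIPB5 (chromosome 16, 22479121 to 22536521, plus strand) was at 6.65 RPKM (1564 reads) in the S435D library, against 8.56 RPKM (1916 reads) in the WT library, a fold of 0.776 (0.726 to 0.830). NPIPB3 was at 5.07 RPKM (563 reads) in the S435D library, against 6.47 RPKM (683 reads) in the WT library, a fold of 0.784 (0.69985 to 0.878). NPIPB4 had 346 reads in the S435D library and 442 in the WT library, a fold of 0.744 (0.645 to 0.859). These are the 3 copies whose stretches are shown above, so their reads may not be independent. NPIPB11 had a fold of 0.846 (0.681 to 1.05). The 6 NPIPB copies below the level filter together had 100 reads in the S435D library and 92 in the WT library, a fold of 1.03 (0.771 to 1.39).

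The abundant NPIPA genes lay closer to equality. NPIPA5 (chromosome 16, 15363624 to 15381047, minus strand), the member with the highest level among all copies, was at 15.3 RPKM (548 reads) in the S435D library and 16.0 RPKM (544 reads) in the WT library, a fold of 0.958 (0.849 to 1.08). NPIPA1 had 1215 reads in the S435D library and 1184 in the WT library, a fold of 0.976 (0.900 to 1.06). NPIPA7 had 169 reads in the S435D library and 175 in the WT library, a fold of 0.918 (0.739 to 1.14). NPIPA2 was lower, with 68 reads in the S435D library, against 93 reads in the WT library (fold 0.695, 0.501 to 0.961). Summed over all copies, NPIPB reads had a fold of 0.785 (0.746 to 0.826) and NPIPA reads a fold of 0.954 (0.896 to 1.01). These counting intervals do not overlap, although each library was measured once and the difference between the branches was not tested over samples.

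The NBPF family had the most reads of any family's copies, 7231 in the S435D library and 8268 in the WT library. All 11 expressed NBPF copies lay below 0, with a median log2 ratio of -0.21 and a range of -0.42 to -0.12. NBPF9 (chromosome 1, 149054027 to 149103561, minus strand) was at 7.82 RPKM (1664 reads) in the S435D library, against 9.68 RPKM (1958 reads) in the WT library, a fold of 0.808 (0.757 to 0.863). NBPF8, the most abundant of them, was at 9.64 RPKM (1208 reads) in the S435D library and 11.0 RPKM (1307 reads) in the WT library, a fold of 0.879 (0.812 to 0.951). NBPF25P, named as a pseudogene, had 847 and 906 reads in the same order.

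NBPF15 was at 5.99 RPKM (748 reads) in the S435D library and 7.23 RPKM (858 reads) in the WT library, a fold of 0.829 (0.751 to 0.915). NBPF10 had 534 reads in the S435D library and 667 in the WT library, a fold of 0.761 (0.678 to 0.854). NBPF12 was the lowest of the family, with 143 reads in the S435D library and 210 reads in the WT library (0.648, 0.520 to 0.805). NBPF1 and NBPF3 share the smallest part of their 50-base words with other genes among the expressed NBPF copies, 21.2% and 11.6%. Their folds were 0.887 (0.762 to 1.03) and 0.869 (0.759 to 0.995). Below the level filter, NBPF19 had 224 reads in the S435D library and 265 in the WT library, and NBPF20 had 142 and 171 in the same order. Together these 2 had a fold of 0.798 (0.693 to 0.919), and they share 82.2% and 75.1% of their words with other genes. The other 9 NBPF copies below the filter, 5 of them without a read, had 11 reads in the S435D library and 14 in the WT library, too few to show a difference.

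Among AGAP genes, the copies of chromosome 10 can be set beside single-copy relatives in the same table. AGAP9 (chromosome 10, 47501854 to 47523638, minus strand) was at 5.50 RPKM (309 reads) in the S435D library, against 7.75 RPKM (414 reads) in the WT library, a fold of 0.710 (0.611 to 0.824). AGAP4 had 148 reads in the S435D library and 195 in the WT library, a fold of 0.722 (0.579 to 0.898). AGAP12P had 52 and 73 reads in the same order (fold 0.677, 0.465 to 0.980). AGAP6 was at 5.33 RPKM (396 reads) in the S435D library and 6.07 RPKM (429 reads) in the WT library, with an interval of 0.764 to 1.01. AGAP5 and AGAP11 had folds of 0.891 and 0.837, with intervals that include 1.

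AGAP3, single-copy and the most abundant member, was at 21.2 RPKM (5493 reads) in the S435D library, against 22.3 RPKM (5505 reads) in the WT library, a fold of 0.949 (0.914 to 0.985). AGAP2 encodes PIKE, a GTPase known to bind AKT. It was at 4.16 RPKM in the S435D library and 3.85 RPKM in the WT library, a fold of 1.08 (0.965 to 1.21). AGAP1, which acts on Arf1, had 344 reads in the S435D library and 338 in the WT library (fold 0.968). Summed reads of the 10 AGAP copies had a fold of 0.802 (0.743 to 0.866). None of the 4 expressed single-copy genes was 1.2-fold lower or higher, and their median log2 ratio was -0.053.

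TBC1D3 genes were weakly expressed. TBC1D3L had 62 reads in the S435D library and 59 in the WT library, and TBC1D3 had 56 and 62 in the same order. Summed over all 12 copies there were 265 reads in the S435D library and 278 in the WT library, a fold of 0.906 (0.763 to 1.08), so neither equality nor a difference of the NBPF size was distinguishable at this depth. TBC1D31, a centrosomal gene that shares only the first letters, was at 2.88 RPKM in the S435D library and 3.22 RPKM in the WT library, and its interval of 0.796 to 1.001 reaches equality. TBC1D30 had 113 reads in each library, and TBC1D32, a ciliary gene, 109 in the S435D library and 96 in the WT library.

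**Figure D2:**
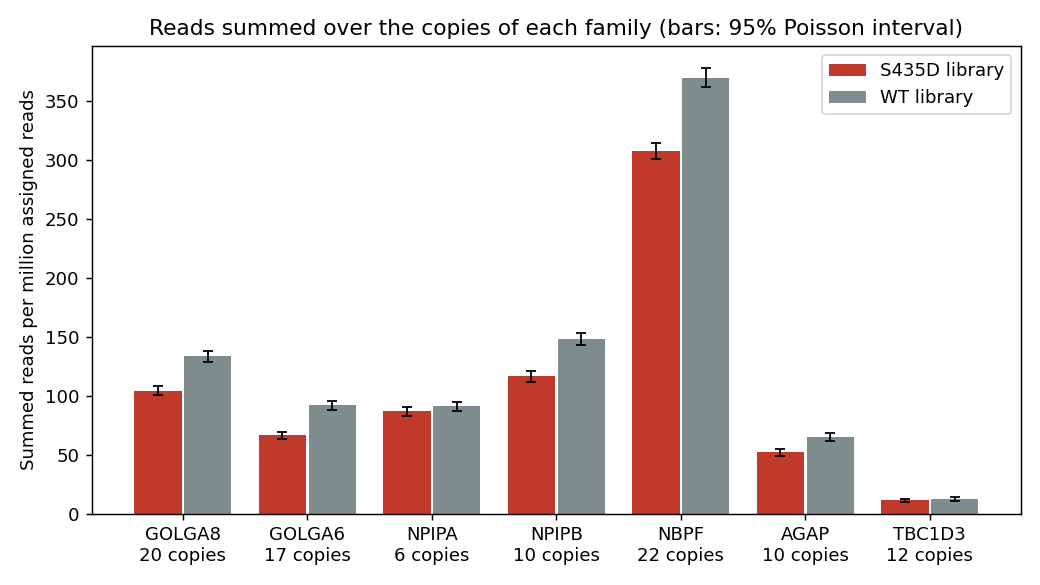
Reads summed over all copies of each family, expressed or not and without the single-copy genes, as RPM (reads scaled to library depth), in the S435D library (left bars) and the WT library (right bars), with 95% Poisson intervals. NBPF reached 307 RPM in the S435D library and 370 RPM in the WT library, and the bars of NPIPA, at 86.7 and 90.9, and of TBC1D3 have overlapping intervals.

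Summed over all 97 copies, the families took 744 RPM (17504 reads) in the S435D library and 911 RPM (20377 reads) in the WT library, a fold of 0.817 (0.8005 to 0.834). The 6 single-copy genes together had a fold of 0.957 (0.926 to 0.989). Reads that fall in several overlapping or identical copies may be counted more than once, so these intervals are too narrow by an unknown amount. Below the level filter stood 57 copies, 10 of them without reads, which allows up to 3 reads each. Of the 26 among them with at least 20 reads, 16 had a fold below 1 and 10 above.

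The copies were next set beside genes of related function that are not multiplied, and beside other multiplied genes. These lists were drawn up with earlier results of the same libraries known, and they are given by count and median. Of 18 single-copy golgin and Golgi tether genes 16 were expressed, 8 below 0 and 8 above, with a median log2 ratio of 0.0099. GOLGB1, which encodes giantin, had a fold of 1.204 (1.14 to 1.28), TRIP11, which encodes GMAP-210, 1.32 (1.16 to 1.49), and GOLGA3 0.851 (0.794 to 0.912). Of 20 other ArfGAP genes 15 were expressed, with a median of 0.058, as were 24 of 33 other TBC-domain genes, with a median of -0.039. By the log2 ratio with the pseudocount, 0 genes of either list were past 1.2-fold, although a few folds without it were. Farthest from 0 were ADAP2 at a fold of 0.816 (0.658 to 1.01), ARAP3 at 1.24 (0.999 to 1.53) and SMAP1 at 1.17 (1.01 to 1.36) among the ArfGAP genes. Among the TBC-domain genes they were TBC1D14, a regulator of autophagy, at 0.824 (0.752 to 0.903), TBC1D9 at 0.837 (0.661 to 1.06) and EVI5 at 1.17 (0.998 to 1.38).

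Of 73 listed genes in other human segmental duplications 43 were expressed, 28 below 0 and 15 above, with a median of -0.072. At least 1.2-fold lower were 5 (11.6%), against 7.92% of all expressed genes, and 0 were higher, against 4.43%. The sulfotransferase copies SULT1A4 and SULT1A3 had folds of 0.732 (0.586 to 0.912) and 0.754 (0.604 to 0.939), and CBWD1, of a COBW-domain family, 0.776 (0.702 to 0.858). SMN1, the gene of spinal muscular atrophy, had a fold of 0.910 (0.864 to 0.959), and SRGAP2C, a human-specific copy of a neuronal gene, 1.02 (0.901 to 1.16). Both were named after their values were seen.

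**Figure D3:**
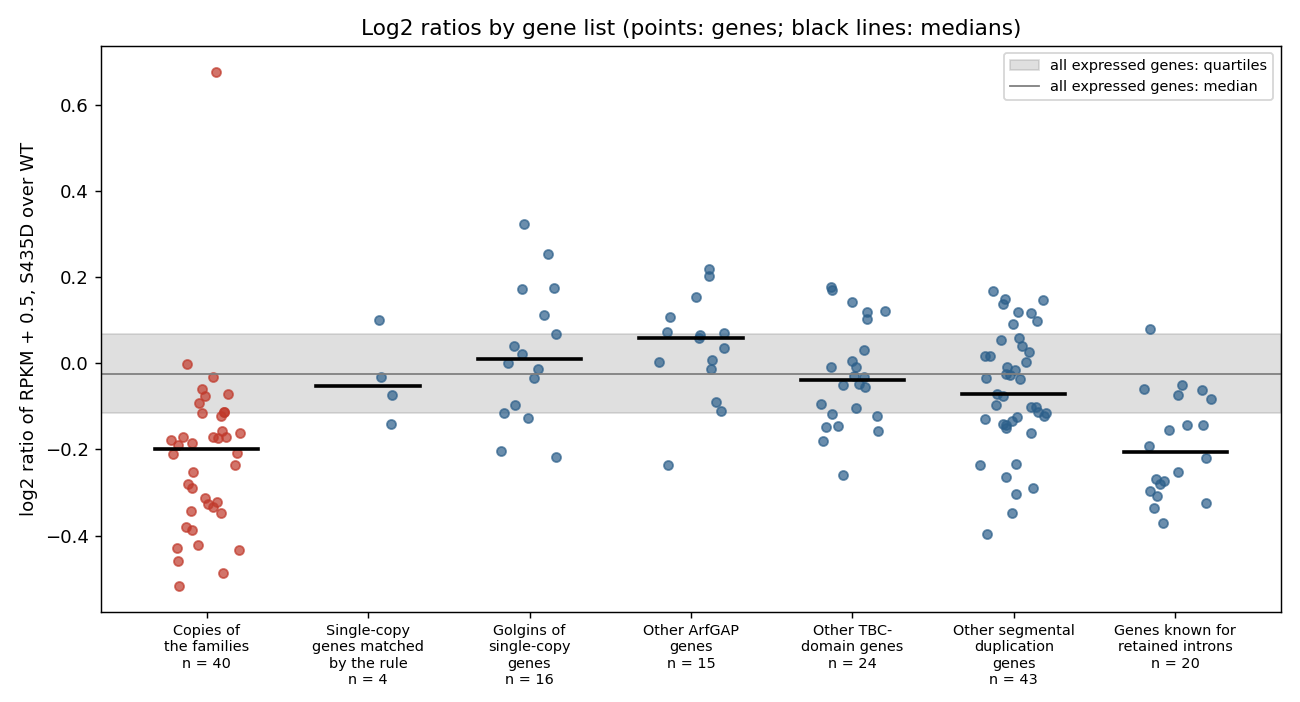
Log2 ratio of RPKM plus 0.5, S435D over WT, for the expressed genes of each list (points), with list medians as black lines and the median and quartiles of all expressed genes in grey. The 40 copies have a median of -0.20, the 16 single-copy golgins 0.0099, the 43 other segmental-duplication genes -0.072 and the 20 genes known for retained introns -0.21.

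Genes known to keep introns in a part of their RNA showed ratios much like those of the copies. Of 20 such genes, all expressed, 19 lay below 0 and 8 (40%) were at least 1.2-fold lower, against 7.92% of all expressed genes, with a median of -0.21. OGT, the enzyme of O-linked N-acetylglucosamine, whose low ratio was already known when the list was made, had 1233 reads in the S435D library and 1549 in the WT library (fold 0.757, 0.702 to 0.816). SRSF7, a splicing factor, was at 48.1 RPKM in the S435D library and 60.8 RPKM in the WT library (0.790, 0.760 to 0.822). RSRP1 had a fold of 0.784 (0.716 to 0.858), and CLK4, a kinase of splicing factors named after its value was seen, 0.776 (0.682 to 0.882). These genes have little sequence in common with others, a median of 0.206% of their 50-base words.

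The copies were also divided by an annotation. GENCODE lists at least 1 transcript of the type retained intron for 10 of the 40 expressed copies: GOLGA8A, GOLGA8B, GOLGA6L9, GOLGA6L10, NPIPB3, NPIPB4, NPIPB5, NPIPA1, NBPF9 and AGAP4. Of these 10, 9 were at least 1.2-fold lower, with a median log2 ratio of -0.34, and the exception was NPIPA1. Of the 30 without such a transcript 7 (23.3%) were, with a median of -0.17. The share over all expressed genes was 7.92%. These values come from the contrast that chose the families. Several of the 10 are close copies of one another, so their reads may not be independent. NPIPB3 has 97.4% and NPIPB4 78.5% of its 50-base words in NPIPB5, GOLGA8A has 68.9% in GOLGA8B, and GOLGA6L10 has 52.1% in GOLGA6L9. Without GOLGA8A, GOLGA6L9 and AGAP9, a choice made after the data were seen, 7 of 8 copies with such a transcript were at least 1.2-fold lower and 6 of 29 without one, with medians of -0.33 and -0.17. In GOLGA6L9, 74.0% of the counted bases belong to retained-intron transcripts alone, and in GOLGA8A 14.5%. The table's gene lengths equal the union of GENCODE exons for 90 of the 97 copies, so reads from such introns would be counted where present. Reads inside these introns were not measured. Other protein-coding genes were divided by the share of bases in retained-intron transcripts alone, not by the presence of such a transcript. Their median was -0.024 for 4092 genes without such bases and -0.014 for 1851 genes with up to 10%. It was -0.015 for 3383 genes with over 10 to 50%, and -0.034 for 386 genes with over 50%. At least 1.2-fold lower were 4.40%, 2.32%, 2.22% and 2.59% of these groups in the same order, so their share did not rise with such bases. The 10 copies include many of the better expressed ones, and the part of level or of annotation depth was not tested.

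The likeness to other genes was compared with the ratio over the whole table. Among protein-coding genes outside the families, the median log2 ratio was -0.016 for 4783 genes with no shared 50-base word, -0.021 for 4490 genes with up to 10%, -0.023 for 347 genes with up to 50%, and -0.062 for 87 genes with over 50%. At least 1.2-fold lower were 11.5% of these 87 genes, against 3.41% of those with no shared word, and 3.45% were higher, against 2.07%. The 87 genes are of several kinds and were not matched to the copies. They include SIK1 itself, overexpressed in both libraries, at 86.8% shared words, and genes of chromosome X such as CD99, at 100%. How far such genes shift the median and the shares was not tested. Among the copies themselves, the 20 with over 50 to 80% shared words had a median of -0.21, as had the 17 above 80%. The 3 least alike, NBPF1, NBPF3 and AGAP11, had a median of -0.17.

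**Figure D4:**
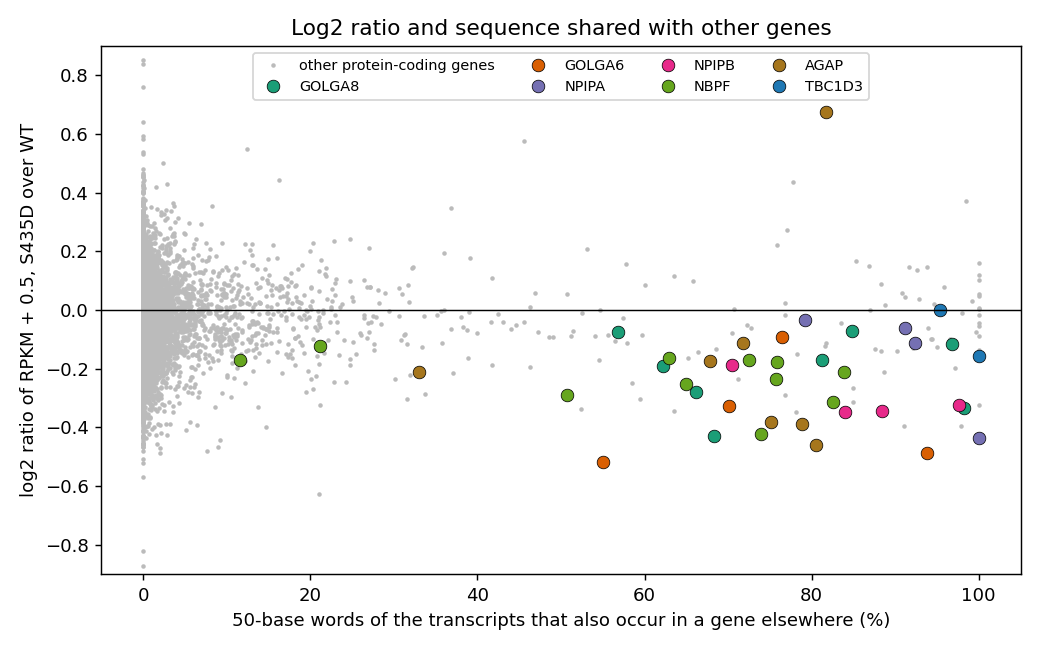
Share of 50-base words found in a gene elsewhere (x axis, percent) and log2 ratio of RPKM plus 0.5, S435D over WT (y axis), for expressed copies by family and for other protein-coding genes in grey. Other genes with over 50% shared words, which are of several kinds and include SIK1, spread on both sides of 0 with a median of -0.062. Of the 40 copies, 39 lie below 0.

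Position on the chromosome was then examined. The 12 expressed copies on chromosome 15 had a median log2 ratio of -0.24, where the 287 other protein-coding genes of that chromosome had -0.038. On chromosome 16 the medians were -0.25 for 8 copies and -0.013 for 472 other genes, on chromosome 1 they were -0.21 for 11 copies and -0.025 for 1012 other genes, and on chromosome 10 they were -0.21 for 7 copies and -0.023 for 383 other genes. The nearest expressed genes on either side of the copies numbered 67, with a median of -0.079, 10 of them (14.9%) at least 1.2-fold lower and 9 (13.4%) higher, against 7.92% and 4.43% of all expressed genes. Restricted to protein-coding neighbours, a choice made after the values were seen, 52 neighbours had a median of -0.064, 33 of them below 0, with 1 at least 1.2-fold lower and 0 higher. The 35 protein-coding genes within 100 kb of a copy had a median of -0.087, 27 of them below 0 and 2 at least 1.2-fold lower. At 100 kb to 1 Mb the median of 191 genes was -0.020, and farther away on the same chromosomes that of 2609 genes was -0.022. The lower gene among the 52 neighbours was LPCAT4, an acyltransferase of phospholipid synthesis 11790 bases from GOLGA8A, with 473 reads in the S435D library and 584 in the WT library (fold 0.770, 0.681 to 0.871). On the other side of GOLGA8A the pseudogene HNRNPLP2 had a fold of 1.26 (1.06 to 1.49).

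Base composition and overlap with other genes were also read beside the copies. Transcripts of the expressed copies held 44.5 to 56.5% GC. The 4039 other protein-coding genes in that range had a median log2 ratio of -0.040, and 3.44% of them were at least 1.2-fold lower. Without the 6 copies that have another gene with reads on more than 10% of their exon bases, namely NPIPA1, NPIPB5, NBPF10, AGAP5, AGAP9 and AGAP11, 13 of 34 copies were at least 1.2-fold lower and the median was -0.19. That choice was made after the data were seen.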

How the data were processed

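The authors deposited a single table of RPKM values for 43337 genes in 2 libraries, with exon blocks and gene length, per the file headers. The sources used here name no aligner, counting program, strand setting, build, library protocol or treatment of reads with several matches. Depth was not given and was inferred from the RPKM values as the scale that makes read numbers whole. Multiplying RPKM by gene length and this depth gave read numbers that were whole for 100% of values, to within 0.01 reads.

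The log2 ratio used a pseudocount of 0.5 RPKM, which shrinks the ratio of weakly expressed genes toward 0. Folds carry no pseudocount and have exact (Clopper-Pearson) 95% intervals from a conditional binomial. With 1 library per group no test was made. The members and lists were chosen with earlier results of these data known. Read literally, the suffix rule would remove AGAP4 and AGAP9, whose digits number the gene, so it was applied after the name AGAP. Of 109 rows matching the family names, 5 were left out. Text names members at a mean of 5 RPKM or more, past 1.2-fold, most abundant in a family or richest in reads below the filter, and up to 3 genes a list, unless said otherwise.

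GENCODE release 29 supplied transcript types, introns and sequences, and 97 of 104 members had the same start and end there. Shared 50-base words were sampled at 1 in 4. The code was tested on simulated data. Alternatives were other pseudocounts, filters, scalings, members and folds. Software was SciPy 1.17.1, pandas 2.3.3 and numpy 2.4.6 under Python 3.11.15, with figures from matplotlib 3.10.9.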

Additional observations from a re-analysis of the deposited data

How the results depend on the processing

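The median log2 ratio of the expressed members (-0.18) stayed below 0 under each setting tried. It was -0.23 with a pseudocount of 0.1 RPKM, -0.11 without a level filter, -0.25 at a mean of at least 5 RPKM, and -0.21 without pseudogene names and single-copy genes. With that last choice the AGAP median moved to -0.21. Without a filter the GOLGA6 median moved to -0.027 and the NPIPB median to -0.17. At 5 RPKM the GOLGA8 median was -0.43, from GOLGA8A alone. As summed RPM over all members, GOLGA8 gave -0.35 and NBPF -0.27, and NBPF gave -0.26 with a pseudocount of 0.1 RPKM. The count of members at least 1.2-fold lower (16) became 7 at 5 RPKM, with fewer genes counted, and 0 with a 1.5-fold or 2-fold rule. The count higher (1) became 3 without a filter, and 0 at 5 RPKM, with a 2-fold rule, or without pseudogene names. The other 66 alternatives for these medians and counts, those by retained-intron annotation included, and all 176 for individual members, moved less than the counting error or, for counts, less than 1.5 times. No paired analysis was possible because there is 1 library per group. Depth limits the copies below 1 RPKM, whose counting intervals mostly include 1.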
